A study of Mus musculus with 6 samples.

Results

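This report describes 48 genes of the interferon response and of class I antigen presentation in embryonic mouse retinal pigmented epithelium (RPE). A gene was taken as measured when at least 1 probe set of the array was annotated with its symbol alone, and the probe set with the highest mean signal stood for it. This gave 44 of the 48 genes, among 19938 genes measured in the same way. *Isg15*, *Gbp2* and *Igtp* lie only on probe sets annotated with several symbols, and *Ifi44* is unnamed here, so no value is given for these 4.

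RNA from E15.5 RPE of C57BL/6J embryos was hybridised to 6 Affymetrix Mouse Gene 1.0 ST arrays. The labels call 3 arrays control, from *Pax6loxP/loxP* embryos, and 3 arrays mutant, from *Pax6loxP/loxP;DctCre* littermates, so both groups carry the floxed *Pax6* alleles and the mutant-labelled ones also carry *DctCre*. This Cre is driven by the *Dct* promoter in RPE progenitors and removes the exons for the paired domain, while a *Pax6* transcript without that domain remains. Dissected RPE was pooled by how pigmented it was, and each pooled tube is 1 biological repeat.

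Interferons are secreted when a cell senses foreign nucleic acid. Type I interferons bind a receptor made of IFNAR1 and IFNAR2, which activates transcription factors that bind the interferon-stimulated response element in the promoters of interferon-stimulated genes. These genes encode proteins that bind or degrade viral RNA, sense it, attach ISG15 to other proteins, or load peptides onto class I molecules for T cells, and they usually rise together after interferon.

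Here 2 of the 44 measured genes were higher on the mutant-labelled arrays and 0 were lower at an adjusted p under 0.05 (limma, Benjamini-Hochberg over 23410 named probe sets). The higher genes were *Ifit3*, of the interferon-induced IFIT family, at 1.86-fold, and *H60b* at 1.79-fold. *H60b* encodes a surface ligand of the NKG2D receptor of natural killer cells. The other 42 genes differed by between -0.21 and 0.17 on the log2 scale, and the 95% confidence interval of each of the 42 lay within a 1.5-fold difference in either direction. Signed values are mutant-labelled minus control-labelled arrays, and they run opposite to the authors' deposited table of group means. Of its 90 matched entries, 0 have both means within 0.1 of the arrays as labelled, and 89 have them with the group names exchanged. For *Ifit3* it gives the authors' means of 4.73 for control and 3.82 for knockout. The direction of pigment genes by QRT-PCR and protein labelling in the study also opposes the arrays as labelled. Which tubes the arrays came from could not be traced, so the text writes of labelled arrays throughout, and if the labels are exchanged every signed difference in it turns. In dissected tissue fewer cells of a type and less RNA per cell cannot be told apart.

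The counts are read against all 23410 probe sets tested. At the adjusted threshold 0.282% of probe sets were higher and 0.0812% lower, against 4.55% and 0 of the 44 genes. At an unadjusted p under 0.05, 3.41% of probe sets were higher and 2.66% lower, against 2 genes (4.55%) and 1 gene (2.27%, *Irf7*). With a fold of at least 1.5 added, 0.308% were higher and 0.12% lower, against 2 genes and 0 genes. The 3 arrays of a group lay wholly above or below the other 3 in 5.98% and 4.97% of probe sets, and in 2 genes (4.55%) and 3 genes (6.82%: *Irf7*, *Stat2* and *Oasl1*). The same 2 genes, *Ifit3* and *H60b*, make up each higher count, and both have their probe set in the authors' deposited list of 100 entries, so these counts are no independent support for them. The median log2 difference was -0.038 over the 44 genes, with 14 above and 30 below 0, and -0.001 over all genes, of which 49.6% were above 0.

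**Figure D1:**
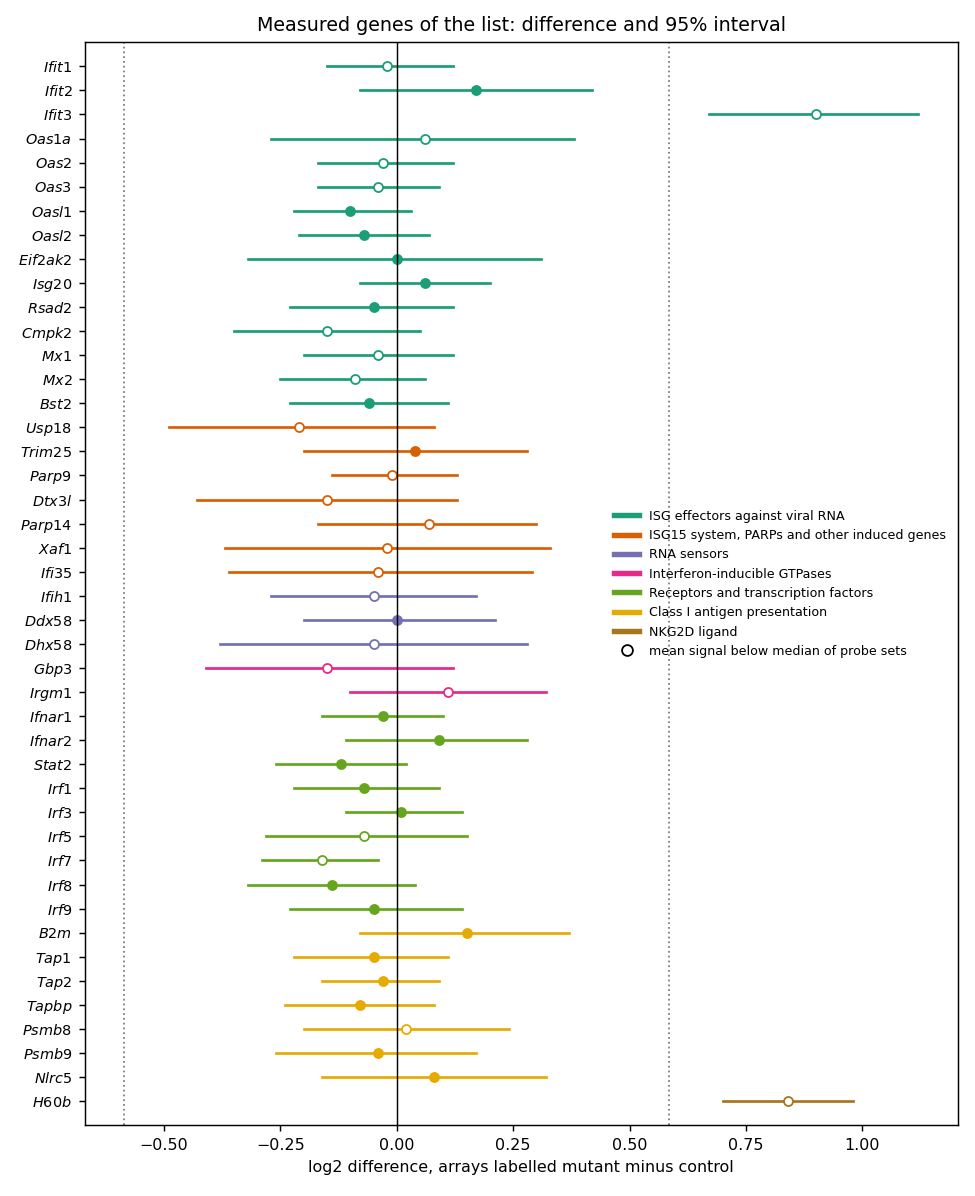
Log2 difference (mutant-labelled minus control-labelled arrays, points) with its 95% interval (bars) for the 44 measured genes, coloured by role, with dotted lines at a 1.5-fold difference and open points for mean signals below the median of all probe sets. *Ifit3* and *H60b* lie right of the dotted line, and the intervals of the other 42 genes lie between the lines.

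Some IFIT proteins bind the ends of foreign RNA and stop its translation. The 3 control-labelled arrays gave *Ifit3* a log2 signal of 3.63, 3.85 and 4.00, and the mutant-labelled ones of 4.64, 4.78 and 4.74. The groups did not overlap, and the means were 3.82 ± 0.18 and 4.72 ± 0.07 (SD, n = 3). The log2 difference was 0.90 (standard error 0.10, 95% interval 0.67 to 1.12, adjusted p = 0.0095 from limma). All 6 signals were below 4.89, the median of the probe sets' mean signals, so *Ifit3* was measured in the dim range of the array. The adjusted p rose to 0.068 without the second and to 0.056 without the third mutant-labelled array, with differences of 0.87 and 0.88, and to 0.061 when all 35556 probe sets were tested.

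*Ifit3b* is a near-identical copy of *Ifit3*, measured by a probe set of its own, and is no gene of the 48. Its log2 signal was 3.05, 2.93 and 3.02 on the control-labelled and 4.22, 3.91 and 3.99 on the mutant-labelled arrays, again without overlap. The difference was 1.04 (standard error 0.09, adjusted p = 0.0033 from limma), or 2.06-fold. Since RNA of one copy can bind probes for the other, how the difference divides between *Ifit3* and *Ifit3b* is uncertain.

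The relatives *Ifit1* and *Ifit2*, chosen for display after their values were seen, did not pass the test. *Ifit1*, which binds RNA whose cap lacks methyl groups, had a log2 signal of 3.25, 3.20 and 3.19 against 3.15, 3.18 and 3.26. The groups overlapped, with a log2 difference of -0.02 and a 95% interval of -0.15 to 0.12. *Ifit2*, another RNA-binding family member, had 5.67, 5.80 and 6.02 against 5.83, 6.03 and 6.14. These groups also overlapped, with a difference of 0.17 and an interval of -0.08 to 0.42.

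The group difference of *Ifit3* exceeded that of *Ifit1* by 0.91 and that of *Ifit2* by 0.72 on the log2 scale. For *Ifit3b* it exceeded them by 1.06 and 0.87. Within each of these 4 pairs of genes, and in the pair *H60b* and *Raet1d*, the per-array difference between the genes did not overlap between the groups. The two-sided exact permutation p was 0.10 for each of the 5 pairs and 0.10 after adjustment over them. This is the smallest that 3 arrays against 3 can give, so this design cannot reach 0.05. *Ifit3*, *Ifit3b* and *H60b* were already known to differ between the groups when the pairs were formed, so the 5 pairs are no independent support.

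**Figure D2:**
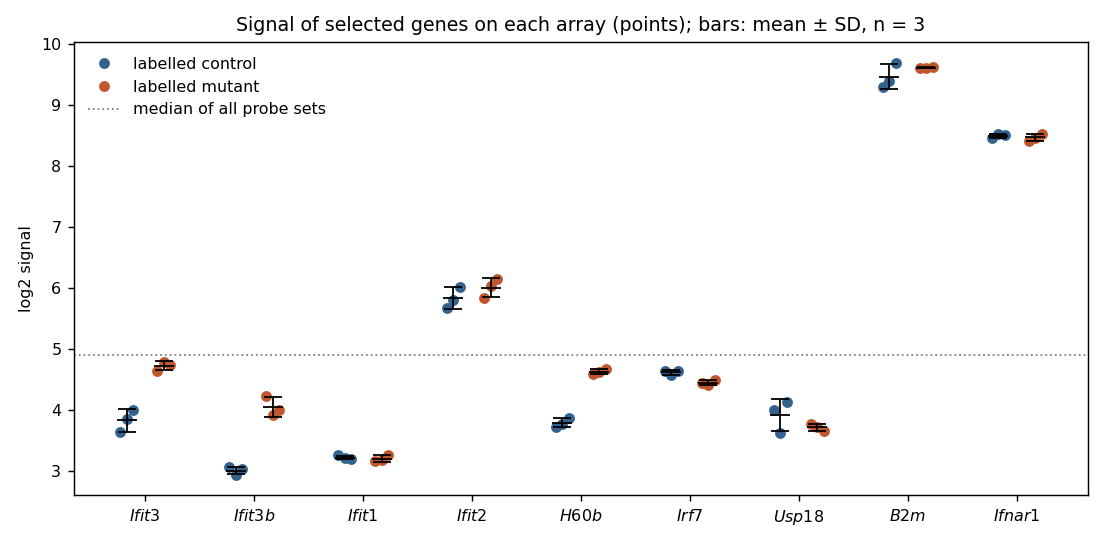
Log2 signal on each array (points) with the mean and SD (bars, n = 3) for 9 genes, control-labelled in blue and mutant-labelled in orange, and the median of all probe sets as a dotted line. *Ifit3*, *Ifit3b* and *H60b* are separated upwards on the mutant-labelled arrays, *Irf7* is slightly lower on them, and *Ifit1*, *Ifit2*, *Usp18*, *B2m* and *Ifnar1* overlap.

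Promoter sequence is shown for *Ifit3* and *Ifit1* because they lie in the same gene cluster where *Ifit3* passed the test and *Ifit1* did not, and because the response element can be read in it. Sequences are from RefSeq (GRCm38.p6), plus strand, 5′ to 3′, and capitals mark matches to GAAANNGAAA, the core of the response element, here on the opposite strand.
*Ifit3*, chr19:34583343-34583446: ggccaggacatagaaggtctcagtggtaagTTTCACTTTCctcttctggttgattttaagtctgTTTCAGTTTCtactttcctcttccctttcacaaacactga
*Ifit1*, chr19:34640755-34640843: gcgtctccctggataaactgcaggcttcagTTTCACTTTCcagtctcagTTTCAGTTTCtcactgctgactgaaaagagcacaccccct

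The matches of *Ifit3* start 156 and 122 bases before the annotated transcript start, 34 bases apart, and those of *Ifit1* 104 and 85 bases before it, 19 bases apart. The 104 bases around the matches of *Ifit3b* (chr19:34607739-34607842) are identical to those of *Ifit3* at 104 of 104 positions. *Ifit2* has no match in its 2 annotated windows of 300 bases (250 before to 50 after the start). Such a match says only that the letters are present. Searched on both strands, the motif stood in 1079 of 27025 genes of the promoter table (3.99%) and in 16 of the 38 listed genes with a window there (42.1%). Of the 13 measured genes with a match, 1 was higher (*Ifit3*), 0 were lower and 12 did not pass, with a median log2 difference of -0.02, against -0.05 for the 21 measured genes without a match.

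The genes beside *Ifit3* on chromosome 19 were looked at after the values were seen. In RefSeq order *Ifit2*, *Ifit3*, *Ifit1bl1*, *Ifit3b*, *Ifit1bl2* and *Ifit1* are followed by *Slc16a12*, which encodes a monocarboxylate transporter family member, and *Pank1*, a pantothenate kinase. *Slc16a12* had 5.08, 5.43 and 5.35 against 6.04, 5.86 and 5.84. The groups did not overlap, but the difference of 0.63 (standard error 0.10) had an adjusted p of 0.069 from limma. With an unadjusted p of 0.00028 from limma and a fold of 1.54, *Slc16a12* is also in the authors' deposited list of 100 entries. On the other side, *Lipa*, the lysosomal acid lipase, differed by 0.22 without overlap (adjusted p = 0.73). *Ifit1bl2*, between *Ifit3b* and *Ifit1*, differed by 0.10, and *Ifit1bl1* was not measured. The differences of *Stambpl1*, *Acta2*, *Fas*, *Ch25h* and *Pank1* lay between -0.20 and 0.14.

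**Figure D3:**
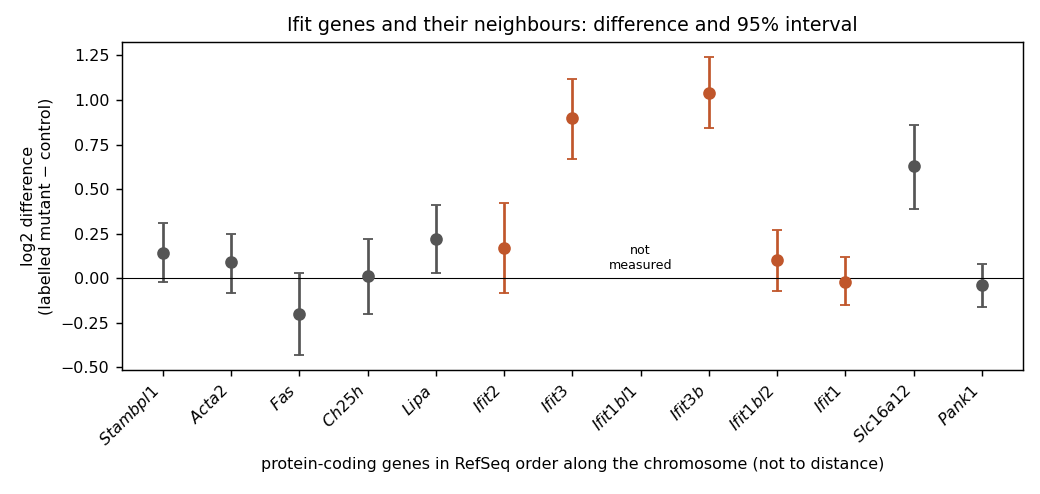
Log2 difference (mutant-labelled minus control-labelled arrays) with its 95% interval for protein-coding genes in RefSeq order along chromosome 19, not to distance, with Ifit genes in orange. The intervals of *Ifit3*, *Ifit3b*, *Slc16a12* and *Lipa* lie above 0, and *Ifit1* and *Ifit2*, in the same cluster, have intervals that include 0.

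*H60b* is the only NKG2D ligand among the 48 genes. Its log2 signal was 3.72, 3.77 and 3.87 on the control-labelled and 4.59, 4.62 and 4.66 on the mutant-labelled arrays. The groups did not overlap and the arrays of each group lay close together (3.79 ± 0.08 and 4.63 ± 0.03, SD, n = 3). The log2 difference was 0.84 (standard error 0.06, 95% interval 0.70 to 0.98, adjusted p = 0.0017 from limma), and all signals were in the dim range. The authors' deposited table names the same probe set *Raet1b*, another NKG2D ligand, with the authors' means of 4.63 for control and 3.79 for knockout, so which ligand gene was measured is uncertain. *Raet1d*, a further NKG2D ligand next to *H60b* on chromosome 10, had 5.80, 5.89 and 5.77 against 5.88, 6.15 and 6.10. These groups overlapped, and the difference of 0.22 had an adjusted p of 0.72. Of 9 further NKG2D ligand and receptor genes 2 were measured, *Raet1d* and the receptor gene *Klrk1*, and 0 passed. *Raet1d* was thus the only further ligand available for comparison. The difference of *H60b* exceeded that of *Raet1d* by 0.62.

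Of the 15 effectors against viral RNA, all measured, *Ifit3* was higher on the mutant-labelled arrays and 14 did not pass. The median difference was -0.04, with 11 of 15 below 0. The oligoadenylate synthetases make the messenger that switches on RNase L, and *Oas1a*, *Oas2* and *Oas3* differed by 0.06, -0.03 and -0.04. The synthetase-like *Oasl1* had 5.17, 5.20 and 5.12 on the control-labelled and 5.03, 5.07 and 5.10 on the mutant-labelled arrays. Its groups did not overlap, but the difference was only -0.10 (adjusted p = 0.92). *Mx1* and *Mx2*, genes of the Mx GTPase family, differed by -0.04 and -0.09. *Rsad2* (viperin) differed by -0.05, its neighbour *Cmpk2*, a nucleotide kinase, by -0.15, and *Bst2* (tetherin, which holds virus particles at the membrane) by -0.06. *Eif2ak2*, the kinase PKR that stops translation, had one of the wider intervals, from -0.32 to 0.31.

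Of the 9 genes of the ISG15 system, PARP proteins and other induced genes, 7 were measured, and 0 of them passed, with differences from -0.21 to 0.07. *Usp18* removes ISG15 from proteins and dampens signalling at the receptor. Its log2 signal was 4.00, 3.62 and 4.13 on the control-labelled and 3.76, 3.72 and 3.65 on the mutant-labelled arrays. The groups overlapped through the second control-labelled array, and the difference of -0.21 (standard error 0.12, adjusted p = 0.93) was the lowest of the 44. *Parp9*, *Dtx3l* and *Parp14*, which act together in ADP-ribosylation, differed by -0.01, -0.15 and 0.07.

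The 3 RNA sensors are helicases that start interferon production (*Ifih1* and *Ddx58*) or tune it (*Dhx58*), and 0 of 3 passed. *Ifih1* (MDA5) had 4.18, 4.21 and 4.50 against 4.23, 4.17 and 4.34, with overlap and a difference of -0.05. *Ddx58* (RIG-I) differed by 0.00 and *Dhx58* by -0.05. Of the 4 interferon-inducible GTPases, which act on membranes around microbes, 2 were measured and 0 passed. *Gbp3* had 3.76, 4.22 and 4.02 against 3.95, 3.74 and 3.86, with overlap and a difference of -0.15 (standard error 0.12). *Irgm1* differed by 0.11.

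Of the 9 receptor chains and transcription factors, 0 passed at the adjusted threshold, and 7 were below 0. The receptor chain *Ifnar1* had a log2 signal of 8.45, 8.52 and 8.51 against 8.41, 8.46 and 8.53, and its partner *Ifnar2* had 7.21, 7.33 and 7.53 against 7.42, 7.42 and 7.49. Both overlapped, with differences of -0.03 and 0.09. *Irf3*, which starts interferon transcription after sensing, had 6.88, 6.83 and 6.87 against 6.92, 6.84 and 6.86, a difference of 0.01. *Irf7* amplifies the response and is itself induced by interferon. It had 4.64, 4.56 and 4.63 on the control-labelled and 4.44, 4.41 and 4.48 on the mutant-labelled arrays. These groups did not overlap, in the direction opposite to *Ifit3*, but the difference of -0.16 (standard error 0.06, unadjusted p = 0.019) had an adjusted p of 0.64. *Stat2* had 6.58, 6.50 and 6.56 against 6.47, 6.35 and 6.46, without overlap and with a difference of -0.12 (adjusted p = 0.88). *Irf9*, the DNA-binding partner of *Stat2*, differed by -0.05, and *Irf1*, *Irf5* and *Irf8* by -0.07, -0.07 and -0.14.

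Of the 7 genes of class I antigen presentation, 0 passed, with differences from -0.08 to 0.15. *B2m*, the light chain of class I molecules, had 9.30, 9.39 and 9.69 on the control-labelled and 9.61, 9.61 and 9.62 on the mutant-labelled arrays. The third control-labelled array lay above all others, and the difference was 0.15 (standard error 0.10, adjusted p = 0.95). *Tapbp* (tapasin), which holds class I molecules at the peptide transporter, had 7.14, 7.35 and 7.28 against 7.17, 7.22 and 7.13, a difference of -0.08. The transporter chains *Tap1* and *Tap2* differed by -0.05 and -0.03, and the immunoproteasome subunits *Psmb8* and *Psmb9* by 0.02 and -0.04. *Nlrc5*, the transcriptional activator of class I genes, had 7.85, 7.58 and 7.81 against 7.99, 7.83 and 7.67, a difference of 0.08. *Nlrc5* has 19 probe sets of its own, with differences from -0.20 to 0.27 and a median of -0.05. The lowest adjusted p among them was 0.79. The probe set shown had a mean signal of 7.79, while the means of the others ran from 3.06 to 5.47. The median of all probe sets was 4.89. The high signal given here for *Nlrc5* therefore rests on the probe set shown and is not shared by the others.

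**Figure D4:**
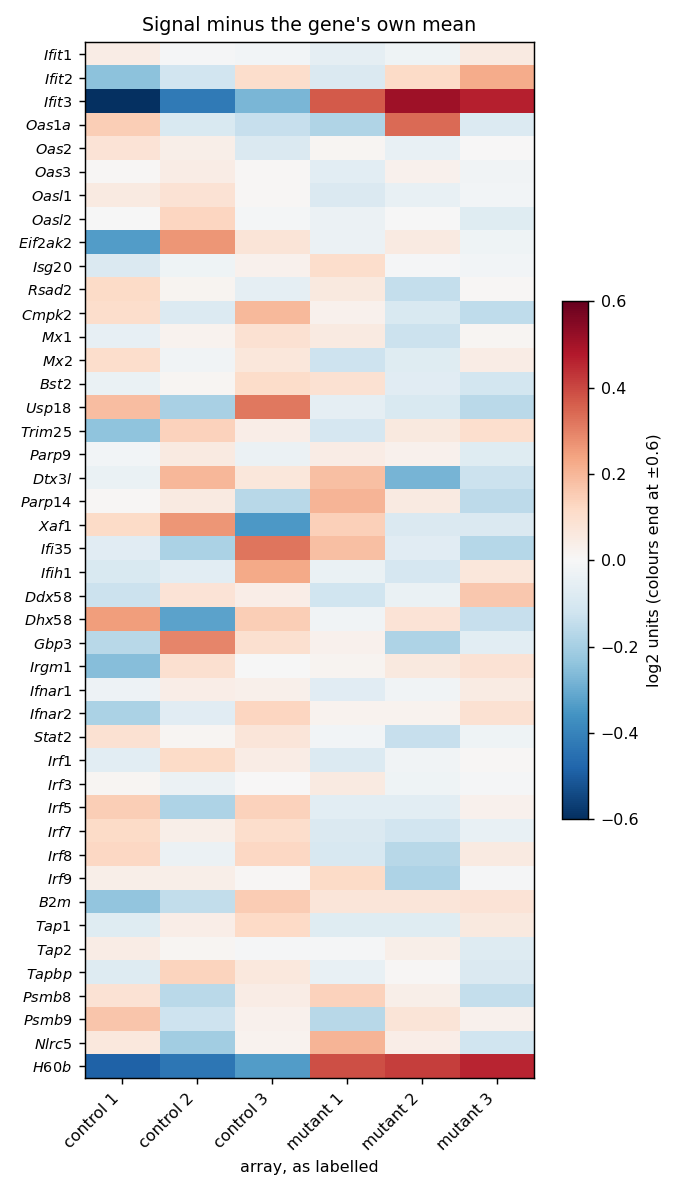
Log2 signal minus the gene's own mean over the 6 arrays for the 44 measured genes, with columns as labelled. *Ifit3* and *H60b* change colour between the groups on all 6 arrays, and the other genes show no shared block of colour.

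The mean log2 signal of the 42 genes other than *Ifit3* and *H60b* was 5.17, 5.18 and 5.23 on the control-labelled and 5.18, 5.15 and 5.16 on the mutant-labelled arrays, so the groups overlapped. The median difference over these 42 was -0.041, with 12 above and 30 below 0. Their highest upper bound was 0.42 (*Ifit2*) and their lowest lower bound -0.49 (*Usp18*), and the half-width of the interval had a median of 0.19 and a maximum of 0.35. Among all genes 97.5% had an interval within 1.5-fold, so this narrow range is not particular to these 42. Of the 44 genes 22 had a mean signal below the median of all probe sets, against 40.0% of all genes, and a change in RNA near background is compressed on the array.

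**Figure D5:**
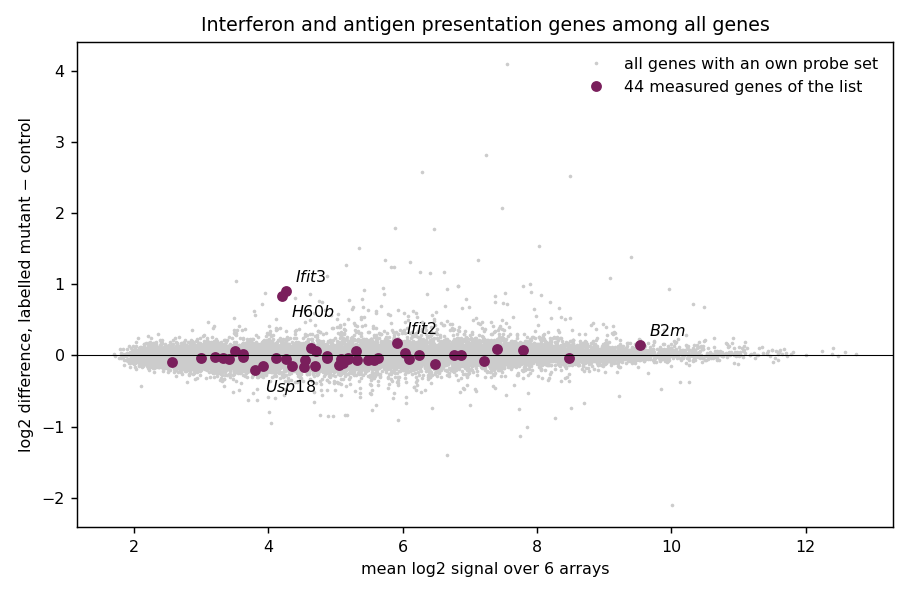
Log2 difference (mutant-labelled minus control-labelled arrays) against the mean log2 signal over 6 arrays for all 19938 genes (grey) and the 44 measured genes of the list (purple). *Ifit3* and *H60b* stand above the grey band, and the other 42 lie inside it.

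A further 109 genes of the same pathways were listed by role, of which 85 were measured. At the adjusted threshold 1 of the 85 was higher, *Ifit3b*, and 0 were lower, beside 0.282% and 0.0812% of all probe sets tested. *Ifit3b*, under an older symbol, is also in the authors' deposited list of 100 entries, so this count is no independent support for it. The interferon genes themselves gave 9 measured ligands of 11, 0 of which passed, with differences from -0.04 to 0.10, and 7 of the 9 were below the median signal. Of 42 further interferon-stimulated genes 36 were measured and 0 passed, with differences from -0.18 to 0.15 and a median of -0.02. Of 16 further antigen presentation genes 12 were measured and 0 passed (-0.11 to 0.16). Of 12 receptor chains, kinases and inhibitors 11 were measured and 0 passed. Among these *Socs3*, an inhibitor of cytokine signalling, had 6.30, 6.26 and 6.41 against 6.15, 6.13 and 6.20, without overlap and with a difference of -0.16 (adjusted p = 0.73). Of 16 genes of the sensing pathway 13 were measured and 0 passed (-0.11 to 0.07).

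*Pax6*, the targeted gene, showed 9.15, 9.02 and 9.22 against 9.00, 8.97 and 8.74. It was lower on the mutant-labelled arrays without overlap, but the difference of -0.23 (standard error 0.09) had an adjusted p of 0.73 from limma. Since a shortened transcript remains, *Pax6* checks the labels in part. *Tyrp1* and *Pmel*, pigment genes that bear on the same check, were higher on each mutant-labelled array than on any control-labelled one, by 0.94 (adjusted p = 0.02) and 0.68 (adjusted p = 0.063). This is the direction opposite to the study's other measurements of these genes. Immune cells also express many of the 44 genes. The 16 macrophage and microglia markers, all measured and 3 of them below the median signal, had a log2 of their summed signal of 10.25 to 10.42 on the control-labelled and 10.25 to 10.39 on the mutant-labelled arrays. The 7 measured of 9 lymphocyte and natural killer cell markers were all below the median signal, at 6.22 to 6.38 and 6.34 to 6.36. The summed signal of the 8 lens and surface epithelium markers did not overlap between the groups, at 11.51 to 11.80 and 11.87 to 12.31, but 0 of the 8 passed at the adjusted threshold. The crystallins *Cryaa*, *Cryba1*, *Crybb1* and *Cryga* were lower on the second mutant-labelled array than on any control-labelled one. On the third they were higher than on any control-labelled array (8.69, 7.19, 8.48 and 8.10), and on the first *Cryaa*, *Cryba1* and *Crybb1* were too. Their log2 differences were 1.16, 0.76, 0.67 and 0.64. *Krt5* and *Krt12* were higher on each mutant-labelled array than on any control-labelled one, *Krt5* only by 10.91 against 10.90. The groups of *Krt14* and *Krt15* overlapped, with log2 differences of 0.25 and 0.22. The part of these lens and epithelium genes in the differences of *Ifit3* and *H60b* was not tested. Of 10 neural retina markers 8 were measured and 0 passed. Their sum varied widely within each group, at 8.55 to 10.24 on the control-labelled and 8.53 to 9.90 on the mutant-labelled arrays. Of the 15 RPE markers 10 were above the median signal, and the sum of the 15 was 12.55 to 12.97 and 12.75 to 12.85. This overlap of the sums holds calls in both directions, with 3 markers higher (*Rrh* by 1.35 and *Tyrp1* by 0.94 on the log2 scale, *Rlbp1* by 2.0-fold) and 1 lower (*Ttr*, a log2 difference of -2.10) at the adjusted threshold. *Rpe65*, a late RPE gene, had a mean of 2.34. The sum of 9 measured periocular mesenchyme markers exceeded that of the RPE markers, at 14.25 to 14.30 and 14.25 to 14.43. Of these 9, 0 were below the median signal. Sums were 11.33 to 11.72 and 11.39 to 11.57 for 12 endothelium markers. For 10 melanocyte markers they were 10.45 to 10.53 and 10.43 to 10.45, and for 2 measured red cell markers 8.93 to 9.77 and 8.92 to 9.22. In these lists 0 markers passed at the adjusted threshold.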

How the data were processed

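The authors' deposited values are log2 signals of 35556 probe sets on 6 arrays. The submitters' processing notes name Partek, and no source used here gives its version or the summarization. Array medians lay between 4.86 and 4.93. The platform annotation gave 23410 probe sets at least 1 symbol, of which 21789 had exactly 1. The authors' deposited table of 100 entries gives mean log2 signals of each group, which served only to compare group names, and its p-values, ratios and fold changes of their own comparison were not used. Columns of other samples numbered 0.

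Groups and replicates came from the sample titles. The comparison used limma 3.58.1 in R 4.3.3 (functions lmFit and eBayes) on the deposited log2 values without covariates, with Benjamini-Hochberg adjustment over 23410 named probe sets and a threshold of 0.05. The fit was tested on simulated data. The exact permutation test of 5 gene pairs went through all splits of the 6 arrays into 3 and 3, with numpy 2.4.6. A number of 3 arrays per group limits the precision, and p-values measure the spread between pooled tubes.

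Signals on all arrays are given for *Ifit3*, for genes with an unadjusted p under 0.05, for the 6 genes with the highest mean signal and for the gene with the smallest p in each role. *Ifit1*, *Ifit2*, *Stat2*, *Oasl1* and the neighbours of *Ifit3* and *H60b* were added after their values were seen. The 48 genes, the role lists and the other lists were chosen with earlier results of these data known. Among the alternatives is the two-sided t-test of the study's methods, called the methods' t-test. Promoter windows were matched by symbol to RefSeq (GRCm38.p6), with 38 of 48 found.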

Additional observations from a re-analysis of the deposited data

How the results depend on the processing

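Depth on an array shows as signal over background, and 22 of 44 genes, *Ifit3* and *H60b* among them, lay below the median signal. The number of genes higher at an adjusted p under 0.05 was 2. It was 1 with all probe sets tested (*Ifit3* 0.90, adjusted p = 0.061), 0 among the 22 genes above the median signal and 0 by the methods' t-test (*Ifit3* 0.90, adjusted p = 0.37; *H60b* 0.84, adjusted p = 0.14; *Ifit3b* 1.04, adjusted p = 0.24), which called 0 of 23410 probe sets. Without each array in turn it was 1 to 2, and *Ifit3* differed by 0.80 to 0.98. *H60b* passed without each array (adjusted p 0.0067 to 0.02, limma). Above the median signal, 0 genes were also higher or lower at an unadjusted p under 0.05, and 0 were higher with a fold of 1.5. At the unadjusted p, lower genes numbered 1, but 0 with a robust variance trend, 2 with array weights, 2 by the methods' t-test and 0 to 6 without each array, and higher genes 2 to 5 without each array (6 lower without the second, and 5 higher without the third control-labelled array). The median over the genes stayed between -0.045 and -0.014 in all alternatives. Differences near 0 changed sign without a call: *Nlrc5* -0.04 with its probe sets averaged and -0.00 without the second control-labelled array, *Irf3* -0.01 after another quantile normalization, *Irf3* -0.00 and -0.01 and *Ifih1* 0.05 without 1 array, and *Ifit1* 0.01 with arrays centred on their medians and 0.00 and 0.01 without 1 array. Over the fits without 1 array, the differences spanned -0.00 to 0.16 for *Nlrc5*, -0.01 to 0.03 for *Irf3*, -0.11 to 0.05 for *Ifih1* and -0.05 to 0.01 for *Ifit1*. The cause of these changes was not tested.

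Deviations of same-numbered arrays correlated at 0.367, -0.06 and 0.075, and those of differently numbered arrays at -0.439 to 0.367. The numbers were therefore not taken as pairs. Since RPE of littermates was sorted into tubes by pigmentation, a control and a mutant tube may share litters, and these correlations cannot exclude that. With the replicate number as a block *Ifit3* differed by 0.90 (adjusted p = 0.0099, limma), 2 genes were higher, and 77 probe sets passed in all, against 85. At an unadjusted p under 0.05 the block gave 3 higher genes in place of 2, with *Ifit2* added (0.17, adjusted p = 0.64 from limma). It changed no call at the adjusted threshold among the named genes.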

Other observations

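The 5 genes whose signals over the 6 arrays were most like those of *Ifit3*, among 19937 ranked, were *Tyrp1* (Pearson r = 0.997), an enzyme of melanin synthesis, *Arhgef37* (0.996), *Ugcg* (0.996), the glucosylceramide synthase, *Ifi30* (0.993), a lysosomal thiol reductase of class II antigen processing that interferon gamma induces, and *Fam13a* (0.993). These r values describe 6 arrays in 2 groups, so a gene that differs between the groups tends to score high. The log2 differences of *Tyrp1*, *Ugcg* and *Fam13a* were 0.94, 0.65 and 0.49 (adjusted p = 0.02, 0.0076 and 0.042 from limma), and that of *Ifi30* was 0.33 (adjusted p = 0.11). Of the other 43 measured genes of the list, 1 was among the 100 highest (*H60b*, r = 0.989), 14 had an r above 0 and 29 below 0. *Ifit2* had an r of 0.707, *Ifit1* of -0.254 and *Irf7* of -0.908.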
